A study of Mus musculus with 6 samples.

Results

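The 10 genes described here belong to, or act with, the BCL2 family, which decides at the outer mitochondrial membrane whether a stressed cell lives or dies. They were chosen by symbol from the 38293 genes of the count table: the survival genes Bcl2, Bcl2l1 and Mcl1, the pore formers Bax and Bak1, the BH3-only death activators Bcl2l11 and Bbc3, and the mitophagy receptors Bnip3, Bnip3l and Bcl2l13. All 10 were found and all 10 passed edgeR's filter on low counts, among 14746 genes tested. In hearts 14 days after myocardial infarction (MI), no member passed the threshold between Zeb2 cKO and Zeb2 fl/fl mice in the test across all genes, and the 95% interval of the log2 fold change held 0 for all 10.

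The hearts came from 3 Zeb2 fl/fl mice, whose Zeb2 alleles carry loxP sites and which the labels call WT, and 3 Zeb2 cKO mice, which carry the same floxed alleles and a Cre recombinase driven by the αMHC promoter of cardiomyocytes. Cre was thus present in 1 group only, so its presence and the loss of Zeb2 cannot be told apart. According to the methods these were male mice, 8 to 10 weeks old at surgery. The labels give C57BL/6J as the backcrossed strain, and in both groups the left anterior descending coronary artery was tied off for good. The labels place the tissue at the border of the infarct, whereas the methods place the bulk RNA in the remote zone. RNA of all cells of the tissue was sequenced, so fewer cells of a type and less RNA per cell cannot be told apart.

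Cell death through mitochondria is held in check by Bcl2, Bcl2l1 (BCL-XL) and Mcl1, which bind Bax and Bak1 and keep them from opening pores that release cytochrome c. BH3-only proteins such as BIM (Bcl2l11) and PUMA (Bbc3) sense stress and tip this balance by occupying the survival proteins. BNIP3, NIX (Bnip3l) and BCL2L13 sit in the same membrane and hand damaged mitochondria to autophagy, and Bnip3 is a textbook target of the hypoxia-inducible factors. In the infarcted heart these genes are studied for the loss of cardiomyocytes and for the clearance of their mitochondria.

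ZEB2 is a zinc finger repressor that binds the E-box CACCTG, so the stretches before the start sites of the members were searched for this motif on both strands, together with the hypoxia element (ACGTG or GCGTG, both strands). RefSeq promoter windows (GRCm38.p6, 250 bases before to 50 bases after the start) were found for 9 members, in 14 windows, and Bnip3l had none in the table used. An E-box stood in 4 of the 14 windows (28.6%) and in 20.2% of all 32851 windows. A hypoxia element stood in 9 of the 14 (64.3%) and in 43.8% of all windows. The E-boxes lay in Bnip3, Bcl2l13 and Bbc3, whose 250 bases before a start site are shown because they hold the letters that ZEB2 reads. Capitals mark both motifs, and overlapping matches are merged (CACGTG holds a hypoxia element on each strand). The Bnip3 stretch (chr7:138909507-138909756, minus strand) has 1 E-box and 5 hypoxia elements, the Bcl2l13 stretch (chr6:120835980-120836229, plus strand) has 1 of each, and the Bbc3 stretch (chr7:16310011-16310260, plus strand) has 2 E-boxes and 1 hypoxia element. The other Bbc3 window with an E-box overlaps the one shown. Its own E-box is a separate match, at position 13 after its start site and outside the printed stretch.
Bnip3: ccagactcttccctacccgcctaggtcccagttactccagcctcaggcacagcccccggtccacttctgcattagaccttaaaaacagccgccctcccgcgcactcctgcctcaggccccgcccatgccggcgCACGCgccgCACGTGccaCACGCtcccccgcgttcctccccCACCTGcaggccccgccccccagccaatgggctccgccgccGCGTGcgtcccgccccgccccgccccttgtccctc
Bcl2l13: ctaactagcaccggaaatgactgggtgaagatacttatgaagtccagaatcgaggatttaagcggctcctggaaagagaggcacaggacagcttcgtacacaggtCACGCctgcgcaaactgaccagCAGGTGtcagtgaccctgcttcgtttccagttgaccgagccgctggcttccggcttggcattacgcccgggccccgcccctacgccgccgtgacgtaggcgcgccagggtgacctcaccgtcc
Bbc3: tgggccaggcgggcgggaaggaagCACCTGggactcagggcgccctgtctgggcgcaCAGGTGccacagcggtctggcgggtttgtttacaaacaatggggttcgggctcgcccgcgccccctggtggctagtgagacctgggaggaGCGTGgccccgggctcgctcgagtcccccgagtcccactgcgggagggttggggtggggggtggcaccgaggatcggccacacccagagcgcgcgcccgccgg
In the Gencode M21 annotation the Bbc3 stretch lies wholly inside the gene and outside its exons, since it precedes an internal start site, and 18 bases of the Bcl2l13 stretch and 13 bases of the Bnip3 stretch are exonic. A match of letters is a description and was not tested as a binding site.

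Libraries held between 37288174 and 51136331 counts, of which 60.55% to 67.03% fell on the 37 mitochondrially encoded genes, and between 14301225 and 19024394 counts remained outside them. The level of a gene in a library is given as CPM, counts per 1000000 of the TMM-normalized library size, in the order of replicates 1, 2 and 3, and gene positions are those of GRCm38. Across the tested genes, 0 passed an adjusted p of 0.05 in either direction by the Benjamini-Hochberg rule in edgeR's quasi-likelihood fit, and 280 (1.90%) had an unadjusted p under 0.05, with Zeb2 cKO lower for 0.861% and higher for 1.04%. That number was 1134 without Zeb2 fl/fl replicate 1, 122 without Zeb2 cKO replicate 1, 181 without Zeb2 cKO replicate 2 and 373 to 393 when 1 of the remaining libraries was left out, so the share it gives rests on single hearts. Zeb2 itself measured 61.3, 116.05 and 71.9 CPM in the Zeb2 fl/fl hearts and 59.6, 72.6 and 66.5 CPM in the Zeb2 cKO hearts. Its log2 fold change was -0.33 (SE 0.25, edgeR quasi-likelihood adjusted p = 0.957) and the groups overlapped. That value rests on Zeb2 fl/fl replicate 2, since replicates 1 and 3 (61.3 and 71.9 CPM) lay within the Zeb2 cKO range of 59.6 to 72.6 CPM. The counts come from the whole tissue and include exons and cells that Cre does not touch, so they do not check the labels. Zeb2 fl/fl replicate 2 stood apart: fibroblast markers (10 of 10 measured) summed to 10551 CPM there, against 2193 and 2594 CPM in the other Zeb2 fl/fl hearts and 2426 to 2782 CPM in the Zeb2 cKO hearts. Macrophage markers (10 of 10) summed to 880 CPM there, against 228 and 316 CPM in replicates 1 and 3 and 274 to 299 CPM in the Zeb2 cKO hearts. Cardiomyocyte markers (11 of 11), which define the labelled tissue, summed to 35314 CPM there, against 69246 and 63434 CPM and 56652 to 68696 CPM. No marker of these lists was at 0 in all libraries.

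The members covered a wide range of levels. Per kilobase of exon, averaged over the 6 hearts, Mcl1 led with 35.5 CPM (33.5 to 37.1 over the hearts), above 97.7% of the tested genes. Bnip3 followed with 12.3 CPM per kilobase (10.6 to 14.9) and Bnip3l with 6.03 (4.90 to 9.13), and the ranges of these 3 genes did not touch. Bak1 (3.85), Bcl2l13 (3.49), Bax (3.06), Bcl2l1 (2.90) and Bcl2 (1.93 CPM per kilobase) formed a run in which the ranges of neighbours overlapped. Within it Bak1 and Bax stayed above the range of Bcl2, and Bak1 above that of Bcl2l1. Bcl2l11 was at 0.922 CPM per kilobase and Bbc3 came last with 0.375, above 17.1% of the tested genes. The level of Mcl1 was 94.7 times that of Bbc3.

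**Figure D1:**
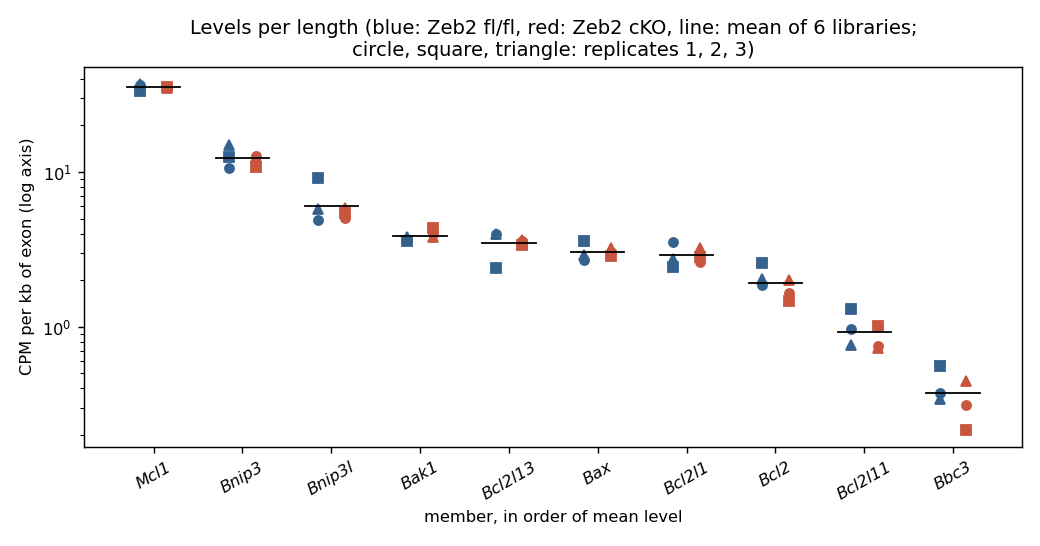
Level of each member per kilobase of exon (vertical log axis, CPM per kb), with members ordered by the mean of 6 hearts (line); blue points are Zeb2 fl/fl, red points are Zeb2 cKO, and circle, square and triangle are replicates 1, 2 and 3. Mcl1 lies at 33.5 to 37.1 in every heart, and the ranges of neighbours from Bak1 to Bcl2 overlap.

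Mcl1 (ENSMUSG00000038612, chr3:95658788-95663176, plus strand), a short-lived survival protein that cardiomyocytes depend on, measured 125, 115 and 127 CPM in the Zeb2 fl/fl hearts and 122, 121 and 119 CPM in the Zeb2 cKO hearts. All Zeb2 cKO values lay between the lowest and the highest Zeb2 fl/fl heart. The log2 fold change of Mcl1 was -0.021 (SE 0.12, 95% interval -0.31 to 0.26, Benjamini-Hochberg adjusted p = 0.988 in edgeR's quasi-likelihood fit). It had the lowest spread of the members in the Zeb2 cKO group, with a coefficient of variation of 1.06%.

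Bcl2 (ENSMUSG00000057329, chr1:106538178-106714274, minus strand), the founding survival gene of the family, measured 16.9, 23.6 and 18.5 CPM in the Zeb2 fl/fl hearts and 15.03, 13.4 and 18.4 CPM in the Zeb2 cKO hearts. The highest heart was Zeb2 fl/fl replicate 2, and Zeb2 cKO replicate 3 fell inside the Zeb2 fl/fl range while the other two lay below it. The means were 19.7 ± 3.45 and 15.6 ± 2.53 CPM (SD, n = 3 each; exact permutation test, two-sided p = 0.2, smallest possible 0.1). Between genotypes the log2 fold change was -0.33 (SE 0.18, 95% interval -0.75 to 0.087, edgeR quasi-likelihood adjusted p = 0.957). Without Zeb2 fl/fl replicate 2 it was -0.18. Without Zeb2 cKO replicate 3 it was -0.47, with an unadjusted p of 0.0482 and an edgeR quasi-likelihood adjusted p of 0.915.

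Bcl2l1 (ENSMUSG00000007659, chr2:152780668-152831728, minus strand), which encodes the survival protein BCL-XL, measured 16.2, 11.2 and 12.5 CPM in the Zeb2 fl/fl hearts and 12.1, 13.0 and 14.8 CPM in the Zeb2 cKO hearts. The highest and the lowest of the 6 hearts were both Zeb2 fl/fl, and the group means were equal at 13.3 CPM (SD 2.62 and 1.38). Its log2 fold change was -0.00066 (SE 0.17, 95% interval -0.40 to 0.40, edgeR quasi-likelihood adjusted p = 0.999). It was 0.17 without Zeb2 fl/fl replicate 1 and -0.11 without replicate 2, so its sign rests on single hearts. The tested genes most like Bcl2l1 over the 6 libraries were Brd1 (Pearson r of log2 CPM 0.992, Spearman rho 1), Chd4 (0.989, rho 0.943) and Pald1 (0.987, rho 1), picked from all tested genes and given as a description over hearts that share the unequal make-up above.

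Summed per kilobase, the 3 survival genes stood at 40.8 ± 1.96 CPM in the Zeb2 fl/fl hearts and 39.9 ± 0.257 CPM in the Zeb2 cKO hearts (SD, n = 3 each). Mcl1 transcripts made up 87.6 ± 0.891% and 88.4 ± 1.31% of that sum. The sum leaves out Bcl2l2, a survival gene outside the members. At 3.74 CPM per kilobase on average over the hearts, it would lower the share of Mcl1.

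**Figure D2:**
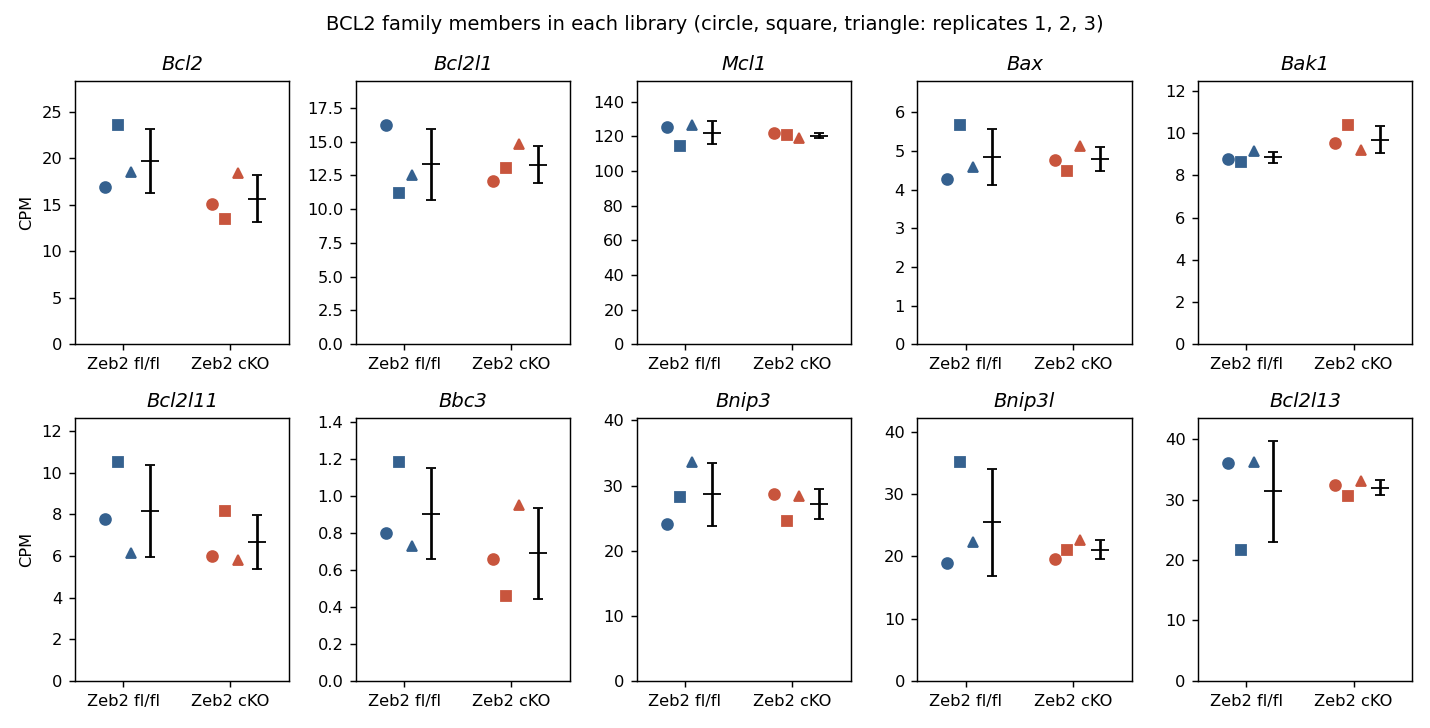
CPM of the 10 members in each heart (linear axes from 0), with Zeb2 fl/fl in blue and Zeb2 cKO in red, circle, square and triangle for replicates 1, 2 and 3, and bars for the mean and SD of 3. Bak1 is the member whose groups do not overlap, from 8.64 to 9.14 CPM against 9.19 to 10.4 CPM.

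Bax (ENSMUSG00000003873, chr7:45461697-45466898, minus strand), which inserts into the outer membrane and forms pores there, measured 4.27, 5.67 and 4.58 CPM in the Zeb2 fl/fl hearts and 4.78, 4.49 and 5.12 CPM in the Zeb2 cKO hearts. Both the lowest and the highest heart were Zeb2 fl/fl. On the log2 scale its fold change was -0.015 (SE 0.16, 95% interval -0.39 to 0.36, edgeR quasi-likelihood adjusted p = 0.994). Without Zeb2 fl/fl replicate 2 it was 0.12.

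Bak1 (ENSMUSG00000057789, chr17:27019810-27029009, minus strand), the other pore former, measured 8.79, 8.64 and 9.14 CPM in the Zeb2 fl/fl hearts and 9.51, 10.4 and 9.19 CPM in the Zeb2 cKO hearts. All Zeb2 cKO hearts lay above all Zeb2 fl/fl hearts, with the nearest pair 9.19 against 9.14 CPM, and Bak1 was the 1 member of 10 whose groups did not overlap, where 6.36% of all tested genes did not (3.39% with Zeb2 cKO higher and 2.97% with it lower). The means were 8.85 ± 0.259 and 9.70 ± 0.622 CPM (SD, n = 3 each; exact permutation test, two-sided p = 0.1, the smallest possible). In the fit across all genes its log2 fold change was 0.13 (SE 0.11, 95% interval -0.13 to 0.39, Benjamini-Hochberg adjusted p = 0.957 in edgeR's quasi-likelihood fit). It was 0.12 without Zeb2 fl/fl replicate 2, 0.082 without Zeb2 cKO replicate 2 and 0.17 without Zeb2 cKO replicate 3. Of the exon bases of Bak1, 18.2% overlap Ggnbp1 on the opposite strand (1758 counts over the libraries), and the strand setting of the counting is not given in the sources used here. The sum of Bax and Bak1 per kilobase was 6.75 ± 0.414 CPM in the Zeb2 fl/fl hearts and 7.07 ± 0.0936 CPM in the Zeb2 cKO hearts (SD, n = 3 each), and these ranges overlapped.

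Bcl2l11 (ENSMUSG00000027381, chr2:128126038-128162547, plus strand), whose product BIM binds every survival protein of the family, measured 7.78, 10.5 and 6.15 CPM in the Zeb2 fl/fl hearts and 6.02, 8.14 and 5.83 CPM in the Zeb2 cKO hearts. Again Zeb2 fl/fl replicate 2 was the highest, and Zeb2 cKO replicate 2 lay above both other Zeb2 fl/fl hearts. The log2 fold change was -0.29 (SE 0.23, 95% interval -0.85 to 0.26, edgeR quasi-likelihood adjusted p = 0.957), and -0.064 without Zeb2 fl/fl replicate 2. It was -0.46 both without Zeb2 fl/fl replicate 3 and without Zeb2 cKO replicate 2.

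Bbc3 (ENSMUSG00000002083, chr7:16308393-16318205, plus strand), a p53 target that encodes PUMA, measured 0.796, 1.18 and 0.729 CPM in the Zeb2 fl/fl hearts and 0.659, 0.461 and 0.949 CPM in the Zeb2 cKO hearts. These values rested on 20 to 52 counts per library, and the groups overlapped. Between genotypes the log2 fold change was -0.38 (SE 0.35, edgeR quasi-likelihood adjusted p = 0.957), with the widest interval of the members, -1.21 to 0.44. Leaving out single hearts took it from -0.69 (Zeb2 cKO replicate 3) to -0.13 (Zeb2 fl/fl replicate 2), and it was -0.17 without Zeb2 cKO replicate 2.

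Bnip3 (ENSMUSG00000078566, chr7:138890836-138909519, minus strand), the hypoxia-induced mitophagy receptor, measured 24.1, 28.2 and 33.7 CPM in the Zeb2 fl/fl hearts and 28.7, 24.5 and 28.4 CPM in the Zeb2 cKO hearts. The Zeb2 cKO values lay within the Zeb2 fl/fl range. Its log2 fold change was -0.074 (SE 0.15, 95% interval -0.44 to 0.29, edgeR quasi-likelihood adjusted p = 0.960). Without Zeb2 fl/fl replicate 1 that of Bnip3 was -0.18, and without replicate 3 it was 0.058, so its sign rests on single hearts. Its counts are uncertain, because 94.2% of the longest Bnip3 transcript is near-identical to 4 other genes. Those genes held 1743 counts against 7465 of its own, and with their counts added the log2 fold change was -0.045.

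Bnip3l (ENSMUSG00000022051, chr14:66985239-67008877, minus strand), whose product NIX also clears mitochondria from maturing red blood cells, measured 18.9, 35.2 and 22.3 CPM in the Zeb2 fl/fl hearts and 19.6, 20.9 and 22.7 CPM in the Zeb2 cKO hearts. Zeb2 fl/fl replicate 2 lay far above the remaining hearts, which spanned 18.9 to 22.7 CPM. On the log2 scale its fold change was -0.27 (SE 0.23, 95% interval -0.83 to 0.28, edgeR quasi-likelihood adjusted p = 0.957) with that heart and 0.036 without it. Red blood cell markers (6 of 6 measured) summed to 147, 238 and 243 CPM in the Zeb2 fl/fl hearts and to 135 to 205 CPM in the Zeb2 cKO hearts, and their part in the level of Bnip3l was not tested. The pseudogene Bnip3l-ps (554 counts, against 6221 of Bnip3l) is near-identical over 34.7% of the transcript.

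Bcl2l13 (ENSMUSG00000009112, chr6:120836212-120892842, plus strand), a mitophagy receptor that can stand in for yeast Atg32, measured 36.1, 21.7 and 36.3 CPM in the Zeb2 fl/fl hearts and 32.4, 30.5 and 33.0 CPM in the Zeb2 cKO hearts. Here Zeb2 fl/fl replicate 2 was the lowest heart, and the Zeb2 cKO hearts lay between it and the other two. In the fit across all genes its log2 fold change was 0.029 (SE 0.21, 95% interval -0.46 to 0.52, edgeR quasi-likelihood adjusted p = 0.991), and -0.18 without replicate 2. Bid lies on the opposite strand of 6.91% of the exon bases (269 counts over the libraries).

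Across the family, 0 of the 10 members had an unadjusted p under 0.05, where 1.90% of all tested genes did. The log2 fold change was below 0 for 8 members, where 51.4% of all tested genes lay below 0, and 5 members lay within 0.1 of 0. The median over the members was -0.047, beside -0.0069 over all tested genes. Leaving out single hearts moved it from -0.14 (Zeb2 fl/fl replicate 1) to -0.011 (Zeb2 cKO replicate 2), with -0.073 for Zeb2 fl/fl replicate 2 and -0.097 for Zeb2 cKO replicate 3. The 95% intervals reached to either side of the estimate by 0.26 for Bak1, the narrowest, and up to 0.83 for Bbc3 on the log2 scale, so differences of that size or less were not resolved by 3 hearts per group. The members with an E-box in a promoter window, Bnip3, Bcl2l13 and Bbc3, had log2 fold changes of -0.074, 0.029 and -0.38.

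**Figure D3:**
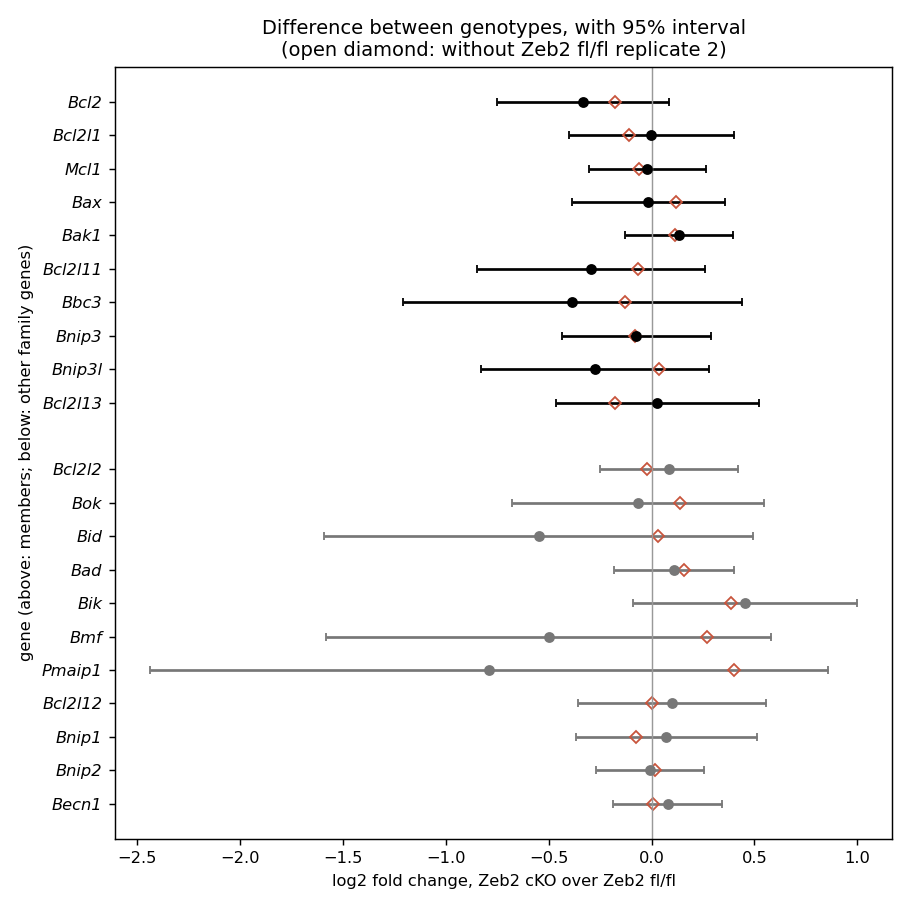
Log2 fold change of Zeb2 cKO over Zeb2 fl/fl (horizontal axis) for the 10 members (black) and 11 other tested family genes (grey), with 95% intervals; red diamonds show the value without Zeb2 fl/fl replicate 2. All intervals hold 0, and Bnip3l moves from -0.27 to 0.036 without that heart.

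One heart took the extreme value for most members. Zeb2 fl/fl replicate 2 was the highest of the 6 hearts for 5 members (Bcl2, Bax, Bcl2l11, Bbc3 and Bnip3l) and the lowest for 4 (Bcl2l1, Mcl1, Bak1 and Bcl2l13), while Bnip3 was neither. Over all tested genes the same heart was the highest for 35.2% and the lowest for 34.6%, so most genes took an extreme there. Relative to the mean of Zeb2 fl/fl replicates 1 and 3, its level was 1.71-fold for Bnip3l, 1.55-fold for Bbc3, 1.51-fold for Bcl2l11, 1.33-fold for Bcl2 and 1.28-fold for Bax. It was 0.598-fold for Bcl2l13, 0.778-fold for Bcl2l1 and 0.910-fold for Mcl1. This is the heart with more fibroblast and macrophage and less cardiomyocyte marker RNA, and the part of the marker difference in the members' values was not tested. Endothelial markers (9 of 9) summed to 792, 584 and 782 CPM in the Zeb2 fl/fl hearts and 709 to 870 CPM in the Zeb2 cKO hearts, and smooth muscle markers (6 of 6) to 623, 417 and 598 CPM and 558 to 667 CPM. Adipocyte markers (6 in the table, 1 tested) summed to at most 0.911 CPM in the Zeb2 fl/fl hearts and to 1.02 to 2.96 CPM in the Zeb2 cKO hearts, without overlap. Lymphocyte markers (6 in the table, 2 tested) summed to 0.859 to 2.26 CPM and 0.622 to 1.34 CPM.

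**Figure D4:**
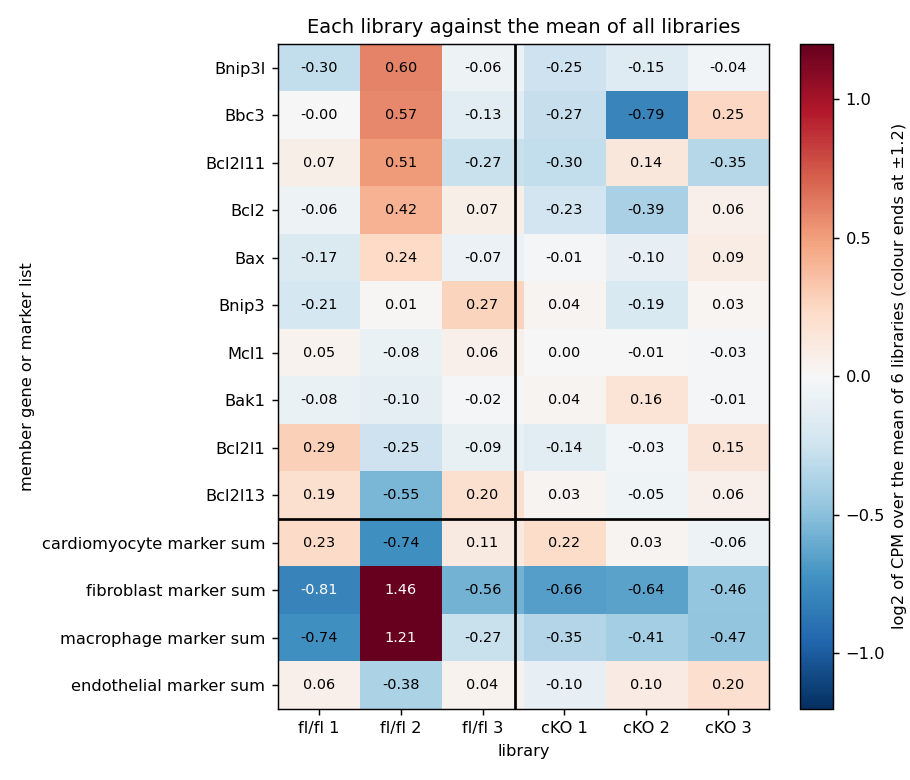
Each heart's log2 CPM relative to the mean of all 6 (colour and printed value; colour ends at ±1.2) for the members and for summed cell type markers, with Zeb2 fl/fl left and Zeb2 cKO right of the line. In the Zeb2 fl/fl replicate 2 column Bnip3l is at 0.60, Bcl2l13 at -0.55, the fibroblast sum at 1.46 and the cardiomyocyte sum at -0.74.

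The balance between death and survival genes was also read within each heart, as ratios of CPM per kilobase, which are descriptions without a test. Bax to Bcl2 was 1.47, 1.40 and 1.44 in the Zeb2 fl/fl hearts and 1.85, 1.94 and 1.62 in the Zeb2 cKO hearts. All Zeb2 cKO hearts lay above all Zeb2 fl/fl hearts (1.43 ± 0.0336 and 1.80 ± 0.168, SD, n = 3 each), a log2 difference of 0.33 (0.27 to 0.40 when single hearts were left out). Ratios to Bcl2 kept the groups apart for 10.4% of the 14745 other tested genes, with Zeb2 cKO higher for 1481 and lower for 47. Bax alone did not separate the groups, with values of 4.27 to 5.67 CPM and 4.49 to 5.12 CPM. From 161 to 275 counts of Bax and 583 to 1034 of Bcl2, exact binomial 95% intervals of the ratio in single hearts were 1.23 to 1.75, 1.21 to 1.61 and 1.21 to 1.70 in the Zeb2 fl/fl group, and 1.59 to 2.14, 1.64 to 2.29 and 1.41 to 1.85 in the Zeb2 cKO group. These intervals cover counting error only, and each pair across the groups overlapped except Zeb2 fl/fl replicate 2 and Zeb2 cKO replicate 2. The spread of 2.34% over the Zeb2 fl/fl hearts was below the counting error of 6.82% to 8.82% per heart, and therefore understates the error of the ratio. The spread over the Zeb2 cKO hearts was 9.29%.

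The other ratios overlapped between the genotypes. Bax to Bcl2l1 was 0.766, 1.48 and 1.06 in the Zeb2 fl/fl hearts and 1.15, 1.00 and 1.01 in the Zeb2 cKO hearts. Its log2 difference of -0.017 came to -0.25 without Zeb2 fl/fl replicate 1 and to 0.22 without replicate 2. Bcl2l11 to Mcl1 was 0.0264, 0.0391 and 0.0207 against 0.0210, 0.0287 and 0.0208, with a log2 difference of -0.25 that ran from -0.47 without Zeb2 fl/fl replicate 3 to -0.0066 without replicate 2. Bnip3 to Bnip3l was 2.17, 1.36 and 2.57 against 2.50, 2.00 and 2.14, with a log2 difference of 0.16 that ran from 0.35 without Zeb2 fl/fl replicate 3 to -0.10 without replicate 2. The highest value of the first and of the second of these ratios, and the lowest of the last, came from Zeb2 fl/fl replicate 2.

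**Figure D5:**
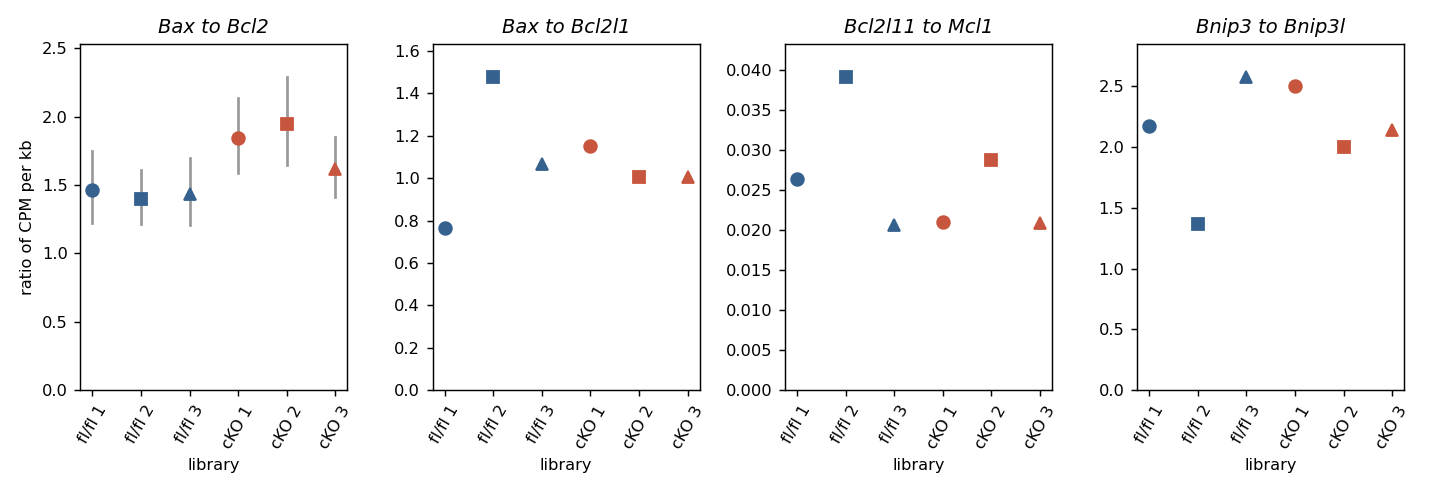
Ratios of CPM per kilobase within each heart (linear axes from 0), with Zeb2 fl/fl in blue and Zeb2 cKO in red; grey bars on Bax to Bcl2 are exact binomial 95% counting intervals. Bax to Bcl2 runs from 1.40 to 1.47 in Zeb2 fl/fl and from 1.62 to 1.94 in Zeb2 cKO hearts, and the other ratios overlap.

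Of 18 further family genes, 16 were in the table and 11 were tested. None was called by edgeR, 0 had an unadjusted p under 0.05, and 5 lay below 0, with a median log2 fold change of 0.072. That median was 0.0051, 0.030, 0.0053 and -0.030 without Zeb2 fl/fl replicates 1 and 2 and Zeb2 cKO replicates 1 and 2 in turn, so its sign rests on single hearts. Bcl2l2 (BCL-W), a survival gene, averaged 16.2 ± 2.18 and 17.2 ± 1.56 CPM in Zeb2 fl/fl and Zeb2 cKO hearts (SD, n = 3 each). Bok, a relative of Bax and Bak1, was at 2.17 and 2.08 CPM on average. Among BH3-only genes, Bik measured 1.54, 1.71 and 2.45 CPM in the Zeb2 fl/fl hearts and 2.52, 2.33 and 2.96 CPM in the Zeb2 cKO hearts. Its groups overlapped by 1 heart of each, and the log2 fold change of 0.46 (SE 0.23) had an unadjusted p of 0.0878 and an edgeR quasi-likelihood adjusted p of 0.957. Bmf was at 2.87, 10.3 and 3.78 CPM against 4.02, 4.01 and 3.98 CPM, and its log2 fold change of -0.50 (SE 0.46) became 0.27 without Zeb2 fl/fl replicate 2. Likewise Pmaip1 (NOXA), at 0.133, 1.00 and 0.286 CPM against 0.220, 0.277 and 0.335 CPM, went from -0.79 (SE 0.69) to 0.40, and Bid, which links death receptors to mitochondria, from -0.55 (SE 0.44) to 0.030. Bad had means of 5.10 ± 0.352 and 5.50 ± 0.147 CPM (SD, n = 3 each). Becn1, a BH3-domain protein of autophagy, averaged 24.5 ± 2.29 and 25.9 ± 0.209 CPM, and Bnip2 averaged 45.3 ± 2.17 and 45.0 ± 2.63 CPM. Bnip1 (log2 fold change 0.072) and Bcl2l12 (0.099) completed the tested genes. Bcl2l10, Hrk, Bcl2l14, Bcl2l15 and Bcl2a1b were too low for the test, Bcl2a1a and Bcl2a1d were not analysed here, and Bcl2a1b is in full near-identical to other Bcl2a1 genes. Zeb2 fl/fl replicate 2 was the highest heart for 4 and the lowest for 4 of the 11.

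The pathways around the family gave no call either. Of 18 genes of the mitochondrial apoptosis machinery, all tested, 8 lay below 0 and the median log2 fold change was 0.10, or 0.023 with Zeb2 fl/fl replicate 2 and 0.0060 with Zeb2 cKO replicate 1 omitted. Birc3, an inhibitor of apoptosis, averaged 7.12 ± 1.34 CPM in the Zeb2 fl/fl hearts and 5.84 ± 0.331 CPM in the Zeb2 cKO hearts (SD, n = 3 each), without overlap. Its log2 fold change was -0.29 (SE 0.16), or -0.12 with Zeb2 fl/fl replicate 2 omitted, and that of Dffb, the nuclease that cuts DNA in apoptosis, was 0.24 (SE 0.20). Of 16 p53 pathway genes 8 lay below 0, with a median of 0.0033 (-0.040 to 0.061 when single hearts were left out). Among them Tigar, which lowers glycolytic flux, averaged 22.0 ± 4.15 and 27.5 ± 2.23 CPM (SD, n = 3 each) without overlap, with a log2 fold change of 0.32 (SE 0.16), and Zmat3 had -0.43 (SE 0.24). With Zeb2 fl/fl replicate 2 omitted these came to 0.18 and -0.20. The groups did not overlap for 1 of 18 apoptosis genes and 1 of 16 p53 pathway genes. In the lists that follow this held for 1 of 17 hypoxia targets and 0 of 15 mitophagy genes. Over all tested genes the share was 6.36%.

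Of 18 hypoxia targets, the list nearest to Bnip3, 17 were tested and 11 lay below 0, with a median of -0.074. This median came to -0.22 without Zeb2 fl/fl replicate 1 and lay between -0.093 and -0.070 when 1 of the remaining hearts was left out. Ddit4 (REDD1), which restrains mTORC1 in hypoxia, measured 7.20, 4.15 and 4.69 CPM in the Zeb2 fl/fl hearts and 2.50, 2.74 and 4.37 CPM in the Zeb2 cKO hearts. Zeb2 cKO replicate 3 overlapped Zeb2 fl/fl replicate 2, and the other Zeb2 cKO hearts lay below. Between genotypes the log2 fold change was -0.73 (SE 0.30), with an unadjusted p of 0.0436 and an edgeR quasi-likelihood adjusted p of 0.957, and -0.88 without Zeb2 fl/fl replicate 2. It was the only gene of these pathway lists with an unadjusted p under 0.05. The lists held 18, 16, 17 and 15 tested genes, and 1.90% of all tested genes had such a p. Ddit4 was named for its small p, so it does not stand out from that share. P4ha1, a collagen prolyl hydroxylase, had -0.26 (SE 0.14), or -0.16 with that heart omitted. Of 15 genes of the mitophagy machinery 9 lay below 0, with a median of -0.014 (-0.019 to -0.0027 when single hearts were left out). The autophagosome protein gene Map1lc3a (0.27, SE 0.22) and the mitophagy adaptor Optn (0.28, SE 0.26) went to 0.062 and 0.040 without Zeb2 fl/fl replicate 2.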

How the data were processed

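Cardiac RNA of 3 mice per genotype was sequenced after MI, and libraries were grouped by genotype and numbered from the sample labels. The authors deposited raw counts per gene in 1 table, made from stranded, ribosomal RNA depleted single-end reads of 75 bases with the STAR workflow, build GRCm38 and Gencode M4, and the submitters' processing notes list DESeq 1.2. The STAR version, strand setting and treatment of multi-mapping reads are not given in the sources used here, and unstated strand or multi-mapping settings can move counts between overlapping genes and near-identical copies.

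All values were computed from these counts. After filterByExpr, TMM normalization was applied with edgeR 4.0.16 under R 4.3.3, and genes were tested with glmQLFit and glmQLFTest on genotype, with Benjamini-Hochberg adjustment over all genes kept. The prior count behind the log2 fold changes was 0.125, and SE and 95% intervals came from the quasi-likelihood fit. Symbols, loci and exon lengths came from Gencode M21, and near-identical copies (at least 75 bases at 95% identity) from BLAST 2.17.0. Single genes were also compared by exact permutation tests, two-sided. P-values measure only the spread between these samples. Depth was at least 14301225 counts per library outside mitochondrially encoded genes, and counting error was largest for Bbc3 and Bax, the members with the fewest counts.

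The members and the gene lists were chosen with earlier results of these data known. Named genes were Zeb2, the members, every tested gene of the further family list, the 2 genes with the smallest unadjusted p of each other pathway list, any called gene, and the 3 genes closest to Bcl2l1. The promoter motifs, and the addition of counts of near-identical copies, were chosen after the data were seen. On data simulated from these libraries, edgeR found 45 of 99 genes with a true log2 fold change of 1 and 99 of 100 with one of 2, with 6 false calls in 14864 tested genes. Whether the simulated spread resembles that of these hearts, where Zeb2 fl/fl replicate 2 stood apart, was not tested. The simulated counts therefore do not give the power of the comparison made here. Alternatives were the DESeq2 1.42.0 Wald test, DESeq2 size factors, no filter on low counts, robust dispersions and leaving out mitochondrially encoded genes. The others were a block for the replicate number, a macrophage marker covariate, added counts of near-identical copies and leaving out each library.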

Additional observations from a re-analysis of the deposited data

How the results depend on the processing

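Each member's log2 fold change was recomputed under 14 alternatives, and 124 of the 140 values kept their direction and their side of the threshold. No member was called under any of them. The sign turned for Bcl2l1, Bax, Bcl2l13, Bnip3l, Mcl1 and Bnip3. Bcl2l1 came to 0.0013 with DESeq2 size factors, 0.018 without a filter on low counts, 0.0042 in the DESeq2 Wald test and 0.012 with the replicate block. Bax came to 0.0046 without the filter and 0.092 with a macrophage marker covariate, under which Bcl2l13 came to -0.12. Without a turn of sign, that covariate gave -0.011 for Bnip3l, -0.14 for Bcl2l11, -0.20 for Bbc3 and -0.21 for Bcl2. It gave -0.097 for Bcl2l1, -0.053 for Mcl1, -0.056 for Bnip3 and 0.12 for Bak1. Leaving out single libraries gave ranges of -0.11 to 0.17 for Bcl2l1, -0.096 to 0.12 for Bax, -0.45 to 0.036 for Bnip3l, -0.18 to 0.15 for Bcl2l13, -0.062 to 0.0062 for Mcl1 and -0.18 to 0.058 for Bnip3. They gave -0.47 to -0.18 for Bcl2, -0.46 to -0.064 for Bcl2l11, -0.69 to -0.13 for Bbc3 and 0.082 to 0.17 for Bak1. Over the same omissions the log2 difference was 0.27 to 0.40 for Bax to Bcl2, -0.25 to 0.22 for Bax to Bcl2l1, -0.47 to -0.0066 for Bcl2l11 to Mcl1 and -0.10 to 0.35 for Bnip3 to Bnip3l. Across all genes, 0 were called except in the DESeq2 Wald test, which called 1, Slc46a2, named after its values were seen (5, 2 and 5 counts in Zeb2 fl/fl and 182, 13 and 89 in Zeb2 cKO). The cause of these changes was not tested. Replicate numbers are shared by the labels of both groups, but the mice differ. Deviations from the group means correlated across genes at 0.0878, -0.137 and -0.0869 for equal numbers, and no library correlated best with its own number. With the replicate block, 0 genes were called and 247 had an unadjusted p under 0.05, against 280 without it. The number with an unadjusted p under 0.05 was 600 without a filter on low counts, 429 in the DESeq2 Wald test, 397 with the macrophage covariate and 122 to 1134 when single libraries were left out. Depth limits Bbc3, with 20 to 52 counts per library.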
